A study of Mus musculus with 18 samples.

Results

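Mitochondrial ribosomal protein genes were taken as every probe set of the value table whose mouse gene symbol begins with Mrpl or Mrps followed by a digit. This rule found 73 of 15780 probe sets with a gene symbol, namely 71 protein-coding genes and 2 pseudogenes, Mrpl23-ps1 and Mrpl27-ps. By symbol, 46 coding genes belong to the large subunit and 25 to the small one. RNA was measured on 18 mouse Affymetrix arrays in 7 groups, and values are log2 intensities made by the authors with GCRMA. All males from which spermatocytes were sorted by flow cytometry were 2 months old.

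Pre-mid-pachytene spermatocytes came from t12+/+T43 males (n = 3), called t12/T43 here, and from Ttf+/+T43H males (n = 3), called Ttf/T43H. C57BL/10J males gave mid-late-pachytene spermatocytes (n = 2) and pre-mid-pachytene spermatocytes (n = 2). Whole testes without the tunica came from males aged 15 days that were t12/T43 (n = 3), Ttf/T43H (n = 3) or C57BL/6J (n = 2). Both carrier lines were on a C57BL/10J background, so in the testes carrier status and strain cannot be told apart. T43H is a reciprocal translocation between chromosomes 16 and 17, and t12 and Ttf are forms of chromosome 17. The series title places the comparison in the study of unsynapsed autosomal chromatin in meiosis. The design text calls the replicates biological.

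As background, the mitochondrial ribosome translates the few messenger RNAs made from mitochondrial DNA, which encode core subunits of the respiratory chain and of ATP synthase. Its RNAs are mitochondrial, whereas all of its proteins are encoded in the nucleus and imported. Some of these proteins have bacterial homologs and others arose in the mitochondrial lineage. Spermatocytes take up lactate from Sertoli cells and rely on mitochondrial respiration.

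The coding genes comprised 42 listed here as having a bacterial homolog and 29 listed as specific to mitochondria. All 73 probe sets together lay on 18 chromosomes with none on the X. Chromosome 11 held 11, chromosome 17 held 6 and chromosome 16 held 3. On all 18 arrays 72 of the 73 reached a log2 value of 4, taken here as the floor for testing. The exception was Mrpl41, which stayed between 2.30 and 3.72 and was not tested. A RefSeq annotation listed 84 genes that fit the rule, and 11 of them, 7 protein-coding, were not analysed here.

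Replicate arrays correlated over all probe sets at 0.962 to 0.996 in sorted cells and at 0.998 to 0.999 in testes, so the same difference is measured with a larger error in sorted cells. Replicate 2 of sorted Ttf/T43H cells correlated least with its group, at 0.974 and 0.962, and in sorted t12/T43 cells replicate 2 correlated least, at 0.980 and 0.975. Replicate 3 of sorted t12/T43 cells had the highest summed Leydig marker level, 13.37, against 10.20 and 10.99 in the others of its group. Replicate 2 of sorted Ttf/T43H cells had a summed spermatogonial marker level of 12.96, against 10.52 and 10.19. Replicate 2 of sorted t12/T43 cells had a summed spermatid marker level of 12.10, against 8.98 and 9.28. Where leaving out 1 of these arrays moved a printed change of a member by over 1.5 times, both values are given. The meiotic marker Sycp3 was at 13.77 to 13.89 in mid-late cells and higher on every other array, at 15.24 to 15.38 in C57BL/10J pre-mid cells. Sycp1 was also lower in mid-late cells, at 10.04 to 10.37, against 13.67 to 13.70 in C57BL/10J pre-mid cells. Late pachytene genes Ccna1 and Spag6l were at 12.68 to 13.04 in mid-late cells, against 6.71 to 8.72 in C57BL/10J pre-mid cells. Piwil1, Pgk2 and Ldhc, the rest of the pachytene list on the array, were also higher in mid-late cells. The sorted fractions also held transcripts of other cells. The spermatid genes summed to 8.98 to 12.1 (log2 of the summed intensity) in t12/T43, 13.8 to 14.7 in Ttf/T43H, 12.7 to 13.3 in mid-late C57BL/10J and 15.4 to 15.9 in pre-mid C57BL/10J cells, and to 5.33 to 5.40 in testes. The difference between the 3′ and 5′ control probe sets of Gapdh and of beta-actin, which grows as labelled RNA gets shorter, was 3.26 to 3.98 for Gapdh and 3.06 to 4.41 for beta-actin in sorted carrier cells, and 2.51 to 3.39 and 3.38 to 3.51 in mid-late C57BL/10J cells, against 2.86 to 2.93 and 2.49 to 2.51 in pre-mid C57BL/10J cells. Within the sorted cells of each carrier, both differences were largest in replicate 2.

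Sequences just upstream of the start site are shown for 3 genes that were lower and 3 that were higher in mid-late than in pre-mid C57BL/10J spermatocytes, to let their promoters be compared. They are RefSeq windows on GRCm38.p6, 5′ to 3′ on the gene's strand, from 200 bases before to 30 after the start, with motif matches in capitals. The windows are chr19:3282842-3283071 (plus strand) for Mrpl21, chr11:115403552-115403781 (plus) for Mrpl58, chr19:6057726-6057955 (minus) for Mrpl49, chr8:71464726-71464955 (plus) for Mrpl34, chr13:73330809-73331038 (plus) for Mrpl36 and chr17:46110804-46111033 (plus) for Mrps18a.
Mrpl21: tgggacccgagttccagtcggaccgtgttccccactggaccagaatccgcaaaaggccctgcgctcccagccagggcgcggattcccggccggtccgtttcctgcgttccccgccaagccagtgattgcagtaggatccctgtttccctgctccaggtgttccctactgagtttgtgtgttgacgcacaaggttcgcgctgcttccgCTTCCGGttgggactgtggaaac
Mrpl58: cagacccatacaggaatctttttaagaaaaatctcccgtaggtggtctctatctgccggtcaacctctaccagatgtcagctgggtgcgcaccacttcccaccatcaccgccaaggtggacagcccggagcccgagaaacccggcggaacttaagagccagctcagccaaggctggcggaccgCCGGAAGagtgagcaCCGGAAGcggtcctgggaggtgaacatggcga
Mrpl49: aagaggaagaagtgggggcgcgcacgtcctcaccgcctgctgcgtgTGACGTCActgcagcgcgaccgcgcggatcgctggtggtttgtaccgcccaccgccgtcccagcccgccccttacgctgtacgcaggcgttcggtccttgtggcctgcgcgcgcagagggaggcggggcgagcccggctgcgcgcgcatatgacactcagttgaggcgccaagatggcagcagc
Mrpl34: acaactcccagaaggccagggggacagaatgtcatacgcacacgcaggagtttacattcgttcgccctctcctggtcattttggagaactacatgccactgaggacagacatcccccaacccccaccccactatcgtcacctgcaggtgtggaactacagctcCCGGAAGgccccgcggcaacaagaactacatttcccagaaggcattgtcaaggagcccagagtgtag
Mrpl36: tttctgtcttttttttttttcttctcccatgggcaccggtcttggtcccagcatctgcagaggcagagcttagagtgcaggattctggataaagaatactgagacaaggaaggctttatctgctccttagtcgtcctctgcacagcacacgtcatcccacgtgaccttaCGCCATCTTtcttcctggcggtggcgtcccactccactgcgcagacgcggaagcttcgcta
Mrps18a: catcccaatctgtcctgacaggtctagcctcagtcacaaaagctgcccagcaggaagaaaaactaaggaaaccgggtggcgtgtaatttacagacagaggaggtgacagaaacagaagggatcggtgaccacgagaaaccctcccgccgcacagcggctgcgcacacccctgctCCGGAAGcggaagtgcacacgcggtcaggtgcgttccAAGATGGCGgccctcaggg

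The motifs searched on both strands were CCGGAAG (ETS factors), GCGC, any 1 base and TGCGC (NRF1), AAGATGGCG (YY1) and TGACGTCA (CRE), none of which contains another. RefSeq windows of 250 bases before to 50 after a start were found for 63 of the 73 members, 66 windows in all. CCGGAAG occurred in 34.85% of the 66 windows, against 13.31% of the windows of all genes on the array. The NRF1 motif occurred in 19.7% of the 66, against 7.64%, and the YY1 motif in 12.12%, against 2.17%. The CRE motif differed less, at 3.03% against 2.61%. At least 1 of the 4 motifs was in 11 of 21 windows (52.38%) of members called lower in mid-late cells, in 4 of 5 (80%) of those called higher and in 25 of 39 (64.1%) of those not called. Among the windows printed, that of Mrpl58 holds 2 copies of CCGGAAG, that of Mrpl34 holds 1, that of Mrpl21 holds 1 on the opposite strand, that of Mrps18a holds CCGGAAG and AAGATGGCG, that of Mrpl36 holds AAGATGGCG on the opposite strand, and that of Mrpl49 holds TGACGTCA. Mrps24, which fell more than Mrpl49, is not printed, and its window also holds the YY1 motif. Over the members, that motif was in 2 of 21 windows of those called lower and 2 of 5 of those called higher. It was in 4 of 39 of those not called. A match describes the letters and is not a measured binding site.

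The median over the 71 coding genes was 9.81, 9.25 and 10.19 in sorted t12/T43 cells and 9.92, 9.92 and 9.64 in sorted Ttf/T43H cells. It was 9.37 and 9.51 in mid-late C57BL/10J cells, against 9.86 and 9.95 in pre-mid C57BL/10J cells. In testes it was 10.10, 10.04 and 10.11 for t12/T43, 10.19, 10.29 and 10.23 for Ttf/T43H, against 10.29 and 10.28 for C57BL/6J. Both mid-late arrays lay below all pre-mid arrays except t12/T43 replicate 2, and all 3 t12/T43 testes lay below the other 5 testes. A cytosolic list was made of the 22 protein-coding genes on the array whose symbol begins with Rpl or Rps and a digit, Rps6k genes left out. The list includes Rps19bp1 and Rpl7l1, which encode other proteins. It had a median of 9.03 and 9.17 in mid-late cells, against 10.75 and 10.78 in pre-mid C57BL/10J cells, a wider gap than that of the mitochondrial genes. Without those 2 genes the medians were 8.85 and 8.92 in mid-late cells, against 10.88 and 10.99 in pre-mid C57BL/10J cells.

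**Figure D1:**
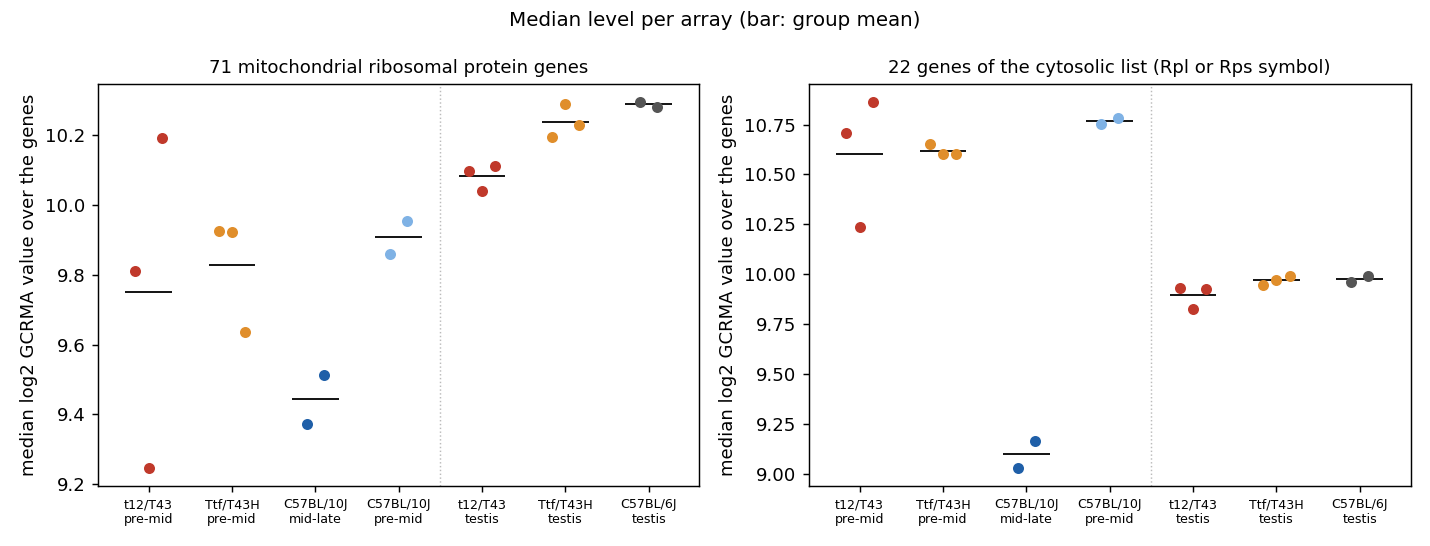
Median log2 GCRMA value per array over the 71 coding mitochondrial ribosomal protein genes (left) and the 22 genes of the cytosolic list (right), by group, with a point for each array and a bar for the group mean. The C57BL/10J mid-late arrays are low in both panels, at 9.37 and 9.51 and at 9.03 and 9.17.

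The members did not move as a unit. Taking the mean of each group, the spread between a gene's highest and lowest group was 0.11 for Mrpl17, a bL17 family protein, 5.26 for Mrpl21 and 1.53 at the median. Mid-late C57BL/10J cells were the lowest group for 29 members and the highest for 14. C57BL/6J testes were the highest group for 24 and the lowest for 2.

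**Figure D2:**
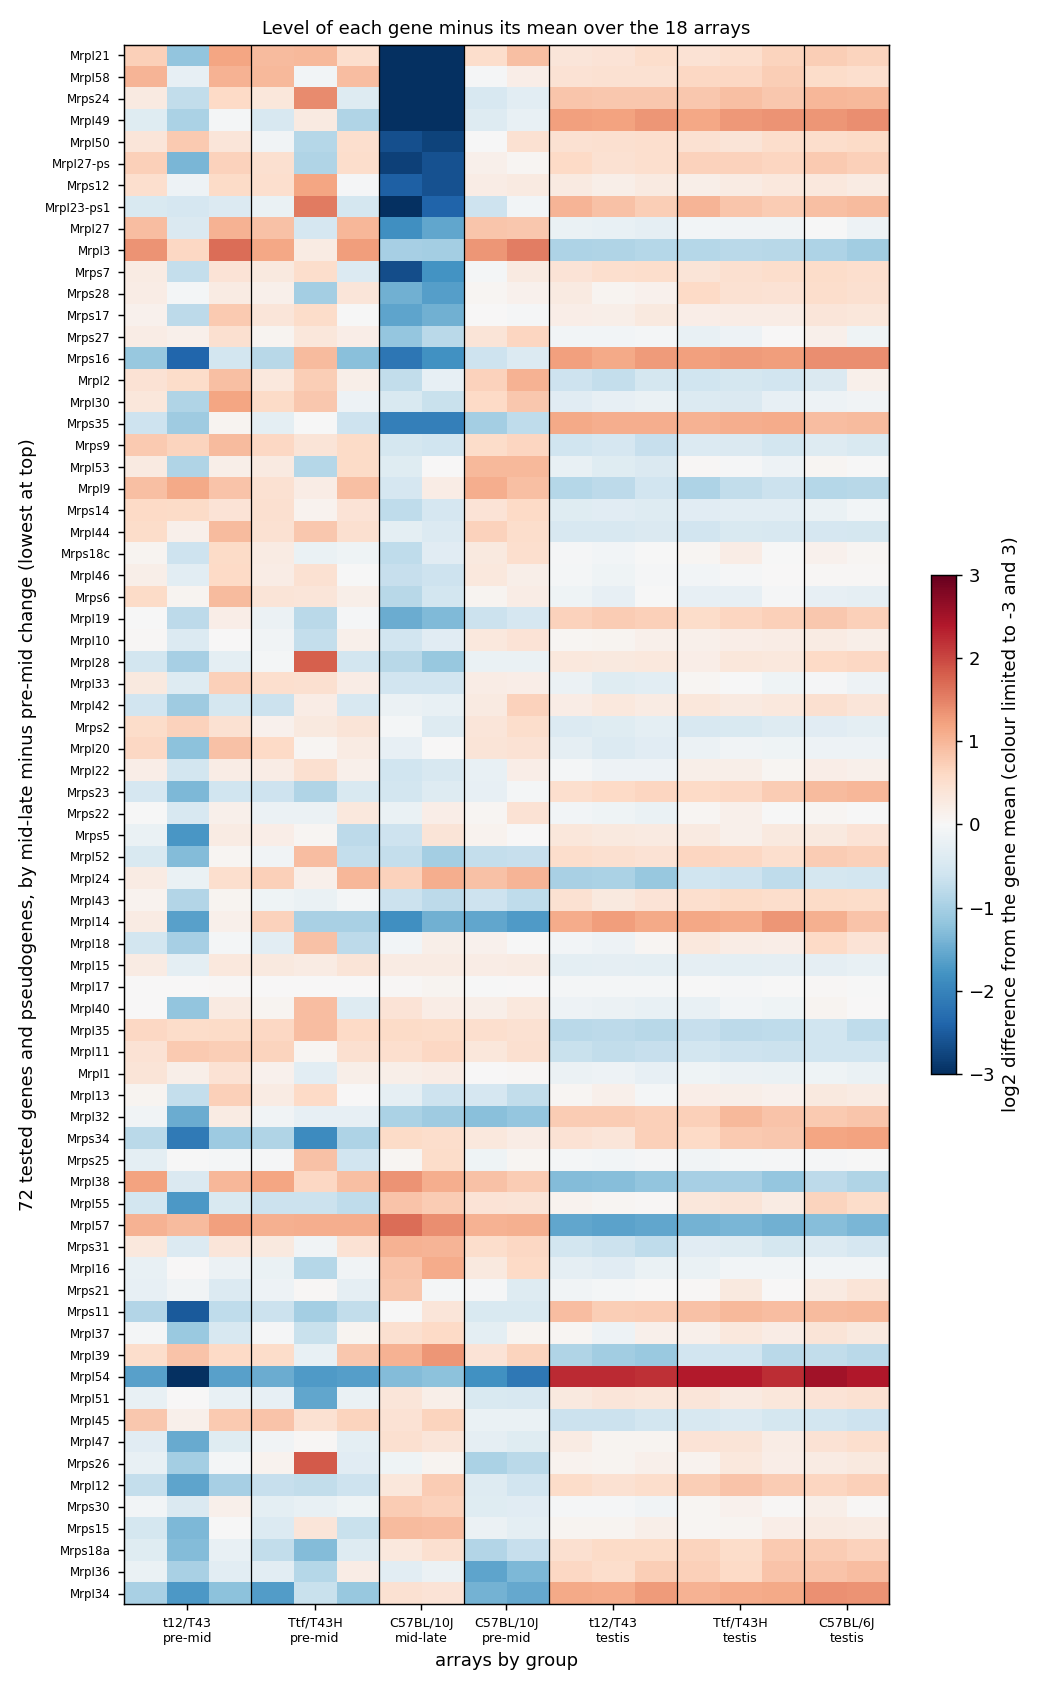
Log2 difference of each of the 72 tested members from its own mean over 18 arrays (colour, limited to -3 and 3), with genes in rows ordered by the mid-late minus pre-mid change and arrays in columns by group. The top rows, led by Mrpl21, Mrpl58, Mrps24 and Mrpl49, are dark blue in the mid-late columns, and the rows of Mrpl54 and Mrpl57 show opposite differences between testes and sorted cells.

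The question of the first comparison was how expression differed between the mid-late and pre-mid stages of pachytene in fertile C57BL/10J males. Of 72 tested members, 5 rose and 23 fell in mid-late cells (limma, Benjamini-Hochberg adjusted p under 0.05, called hereafter). Over all 9666 genes tested, 56.5% were called, 26.2% higher and 30.3% lower, so the 38.9% of members called is below the background and the split is more to the lower side. The median change was -0.21 over the members and -0.11 over all genes, on the log2 scale. By symbol there were 2 higher and 11 lower of 25 small-subunit genes (median -0.67) and 3 higher and 10 lower of 45 large-subunit genes (median -0.01). Both small-subunit symbols that rose, Mrps18a and Mrps30, encode proteins that sit in the large subunit. With these 2 counted there, 0 rose and 11 fell of 23 small-subunit genes (median -0.84), and 5 rose and 10 fell of 47 large-subunit genes (median -0.0027). Genes with a bacterial homolog had 3 higher and 14 lower of 42 (median -0.60), and mitochondria-specific genes 2 higher and 7 lower of 28 (median 0.17). Of 20 genes of the cytosolic list tested, 0 rose and 9 fell (median -1.14), and without Rps19bp1 and Rpl7l1 it was 0 and 9 of 18 (median -1.28).

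Mrpl21, the bL21 protein of the large subunit, was at 4.48 and 4.27 in mid-late cells, against 9.34 and 9.72 in pre-mid C57BL/10J cells. Both mid-late values lie close to the floor of 4, and the groups do not overlap. The change was -5.16 ± 0.66 (log2, SE, n = 2 and 2; adjusted p 0.000191). Mrpl58, a peptidyl-tRNA hydrolase that sits in the large subunit and frees stalled ribosomes, was at 5.88 and 5.80 in mid-late cells, against 9.88 and 10.13. It was 17.94-fold lower in mid-late cells (-4.17 ± 0.50).

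Mrps24, a small-subunit protein near the messenger RNA entry, was at 6.06 and 6.21 in mid-late cells, against 9.48 and 9.64, a change of -3.42 ± 0.59. Mrpl49 and Mrpl50 are mitochondria-specific proteins of the large subunit. Mrpl49 was at 4.07 and 4.39 in mid-late cells, against 7.40 and 7.59 (-3.26 ± 0.42). Mrpl50 was at 5.85 and 5.72 in mid-late cells, against 8.49 and 8.94 (-2.93 ± 0.42).

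The pseudogene Mrpl27-ps was at 8.11 and 8.30 in mid-late cells, against 11.07 and 10.97 (-2.82 ± 0.73). Its parent Mrpl27, the bL27 protein near the peptidyl transferase centre, was at 10.04 and 10.30, against 12.71 and 12.69 (-2.53 ± 0.60). Probes of a pseudogene and its parent can bind each other's transcripts, so the 2 rows are not independent and the pseudogene's own level is uncertain, as is that of Mrpl23-ps1 (-2.61 ± 0.65).

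On the translocation chromosomes, Mrpl2 of distal 17 (-1.35 ± 0.30) and Mrps6 of chromosome 16 (-0.84 ± 0.30) also fell. The other 15 members that fell, named to account for all, were Mrps12, Mrpl23-ps1, Mrpl27, Mrpl3, Mrps7, Mrps28, Mrps17, Mrps27, Mrps35, Mrps9, Mrpl9, Mrps14, Mrpl44, Mrpl46 and Mrps2, with changes of -2.78 to -0.67. Among them Mrps12 forms part of the decoding centre, and Mrpl3 is a core protein of the large subunit.

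Mrpl34, the bL34 protein, was at 8.54 and 8.49 in mid-late cells, against 6.66 and 6.55 in pre-mid C57BL/10J cells, and rose by 1.91 ± 0.36, 3.76-fold (adjusted p 0.00182). Mrpl36, the bL36 protein, was at 8.31 and 8.48, against 7.06 and 7.30 (1.21 ± 0.39). Mrps18a was at 9.12 and 9.28, against 7.92 and 8.11 (1.18 ± 0.41). Its paralog Mrps18c was at 9.89 and 10.31 in mid-late cells, against 10.95 and 11.15, and did not pass the test (-0.95 ± 0.38, adjusted p 0.0614).

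Mrps30 was at 10.95 and 10.89 in mid-late cells, against 9.84 and 9.85 (1.07 ± 0.24). Mrpl12, a stalk protein that also binds the mitochondrial RNA polymerase, was at 10.85 and 11.27, against 10.12 and 9.95 (1.02 ± 0.31). For all 5 of these genes both mid-late arrays lay above both pre-mid ones. That was so for 27 members, with 36 below, where 88.4% of all genes were apart (42% above, 46.4% below).

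**Figure D3:**
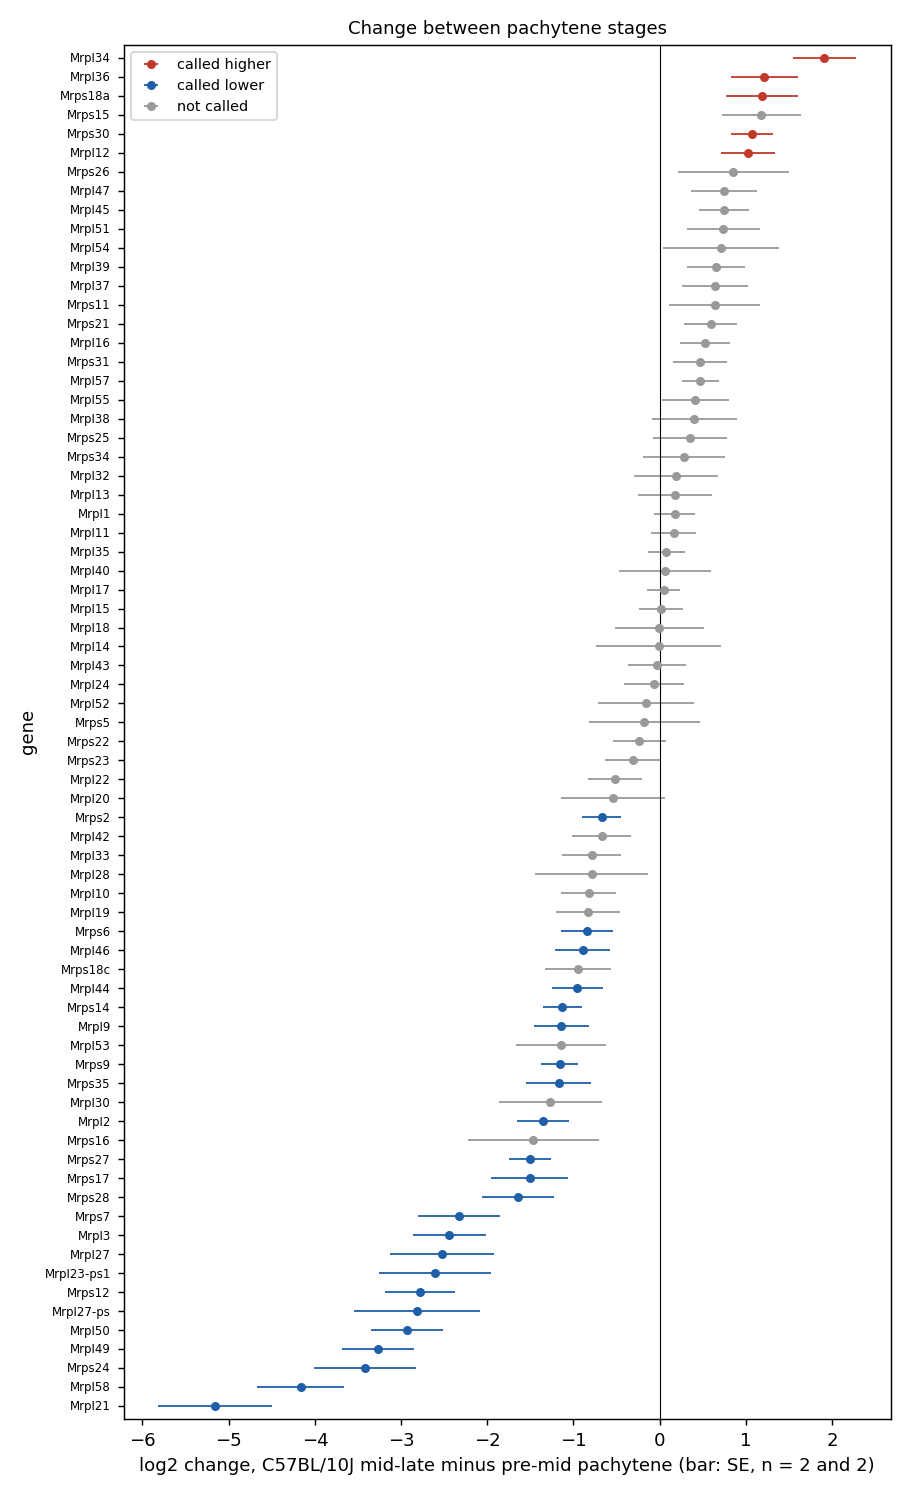
Log2 change of each of the 72 tested members between C57BL/10J mid-late and pre-mid spermatocytes, with the moderated SE as a bar and colour for the call. Mrpl21 (-5.16) and Mrpl58 (-4.17) lie far to the left and Mrpl34 (1.91) farthest to the right, with 44 members not called.

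The call held for 15 of the 28 genes whichever of the 4 arrays was left out, among them Mrpl21, Mrpl58, Mrps24, Mrpl49, Mrpl50, Mrpl34 and Mrps30. Leaving out either pre-mid array gave 18 calls, and leaving out mid-late replicate 1 gave 17. Scaling changed the balance, since centring each array on its median moved the median of all genes to 0.41 and gave 14 higher and 13 lower members, and quantile normalization gave 9 higher and 23 lower.

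Some markers of other cells were lower in mid-late cells, mainly Sertoli and spermatogonial ones. Leydig genes were not called, the smallest adjusted p being 0.15 by limma, for Cyp17a1. Of the marker genes tested, 4 of 5 Sertoli, 4 of 5 spermatogonial, 4 of 8 spermatid and 2 of 4 peritubular and endothelial genes fell, and 0 of these rose, while 1 of 2 macrophage and blood genes rose. The Sertoli list summed to 8.42 to 8.72 in mid-late cells, against 13.5 to 13.6 in pre-mid C57BL/10J cells, and the spermatogonial list to 5.50 to 5.73, against 10.1 to 10.7. Of the Sertoli markers, Amh and Gata4 were below 4 in both. The part of these cells in the members' changes was not tested, and fewer cells of a type cannot be told apart from less RNA per cell. In the 6 sorted carrier arrays, all 23 members that fell lay on the pre-mid side of both mid-late arrays, as did 4 of the 5 that rose, the exception being Mrpl36. Over all genes called between the stages, the same held for 88.7% of the 2927 that fell and 93.8% of the 2537 that rose. The carrier cells were sorted as pre-mid, and these counts are a description with no test.

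**Figure D4:**
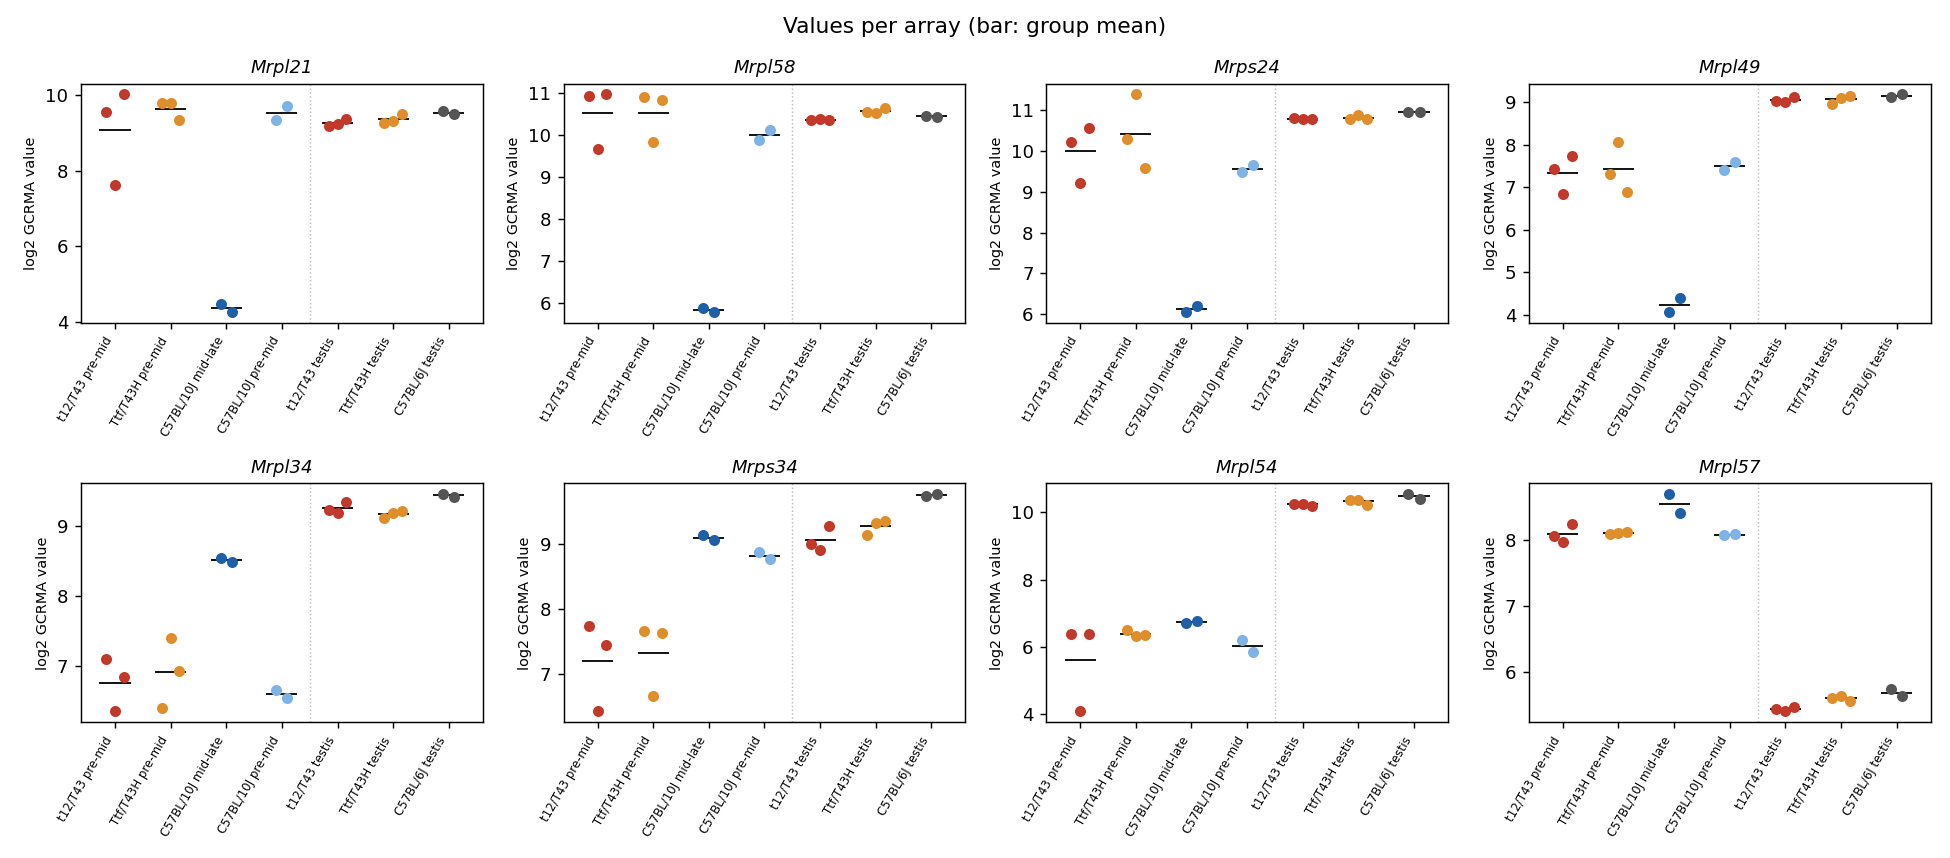
Log2 GCRMA value on each of the 18 arrays for 8 members, by group, with a bar at the group mean and a dotted line between sorted cells and testes. Mrpl21, Mrpl58, Mrps24 and Mrpl49 are lowest in the mid-late cells, Mrps34 is lower in the sorted carriers than in both C57BL/10J groups, and Mrpl54 and Mrpl57 separate the testes from the sorted cells in opposite directions.

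The next comparisons asked whether sorted pre-mid cells of the carriers differed from those of C57BL/10J males, with which both share the same 2 control arrays. In t12/T43 cells 0 members rose and 1 fell, and in Ttf/T43H cells 0 were called, by limma with adjusted p under 0.05. The background was 9.07% of genes for t12/T43 (3.24% higher, 5.83% lower) and 2.06% for Ttf/T43H (0.59% higher, 1.47% lower). Of 72 tested members, 7 and 8 had an unadjusted p under 0.05 (limma), against 2133 and 1731 of all 9666 genes tested. All t12/T43 arrays lay above both controls for 7 members and below both for 13, 20 in all, where 46.8% of all genes were apart (26% above, 20.9% below). For Ttf/T43H these numbers were 13 above and 14 below, where 41.3% of all genes were apart (20.4% above, 20.9% below). Median changes were -0.09 for t12/T43 and -0.01 for Ttf/T43H, with 0.06 and 0.01 over all genes.

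Mrpl42, a mitochondria-specific protein of the large subunit, was the 1 member called. It was at 9.74, 9.25 and 9.78 in t12/T43 cells and 9.67, 10.54 and 9.83 in Ttf/T43H cells, against 10.58 and 11.01 in C57BL/10J cells. All 6 carrier values lay below both controls. It fell by 1.21 ± 0.31 in t12/T43 cells (SE, n = 3 and 2; adjusted p 0.049 by limma), while in Ttf/T43H cells its change was -0.78 ± 0.31 (adjusted p 0.242). With any 1 array of the 2 groups compared left out, its adjusted p in t12/T43 cells lay between 0.0724 and 0.342, so the call was lost each time. Under the other settings that kept 2 or more arrays in each group, it lay between 0.0235 and 0.143 (limma). The lowest was without Ttf/T43H replicate 2 and t12/T43 replicate 3.

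Mrps34, a mitochondria-specific protein of the small subunit encoded on proximal chromosome 17, had the most negative change in both carriers and did not pass the test. It was at 7.73, 6.42 and 7.45 in t12/T43 cells and 7.65, 6.67 and 7.62 in Ttf/T43H cells, against 8.87 and 8.76 in C57BL/10J pre-mid cells. The changes were -1.62 ± 0.43 (adjusted p 0.0528) and -1.50 ± 0.43 (adjusted p 0.115), with 95% intervals of -2.60 to -0.63 and -2.48 to -0.52. Under alternative settings its adjusted p in t12/T43 cells lay between 0.0266 and 0.294, and was 0.0407 without Ttf/T43H replicate 2 and t12/T43 replicate 3.

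Dropping t12/T43 replicate 2 gave 4 called members in t12/T43 cells, and dropping t12/T43 replicate 3 or either control array gave 0. In t12/T43 cells all 8 spermatid genes fell and 3 of 5 Sertoli genes and 1 of 4 Leydig genes rose against C57BL/10J, and in Ttf/T43H cells 1 of 8 spermatid genes fell. The smooth muscle actin gene Actg2, 1 of 4 peritubular and endothelial genes, fell in both (-5.33 ± 0.54 in t12/T43 and -2.80 ± 0.54 in Ttf/T43H, log2). Pgk2, the germ cell phosphoglycerate kinase and 1 of 7 pachytene genes, fell in t12/T43 (-4.47 ± 0.78). Its t12/T43 values spread from 7.43 to 10.37, against 12.80 to 13.03 in C57BL/10J. Whether these cells bear on the members' values was not tested.

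Set against each other, sorted t12/T43 and Ttf/T43H cells differed in 0 members (limma, background 0.755%, 0.0621% higher and 0.693% lower). An unadjusted p under 0.05 was found for 0 members, against 987 of all 9666 genes tested. The arrays of the carriers were apart for 3 members, 2 with t12/T43 higher and 1 lower, where 11.9% of all genes were apart (5.68% higher, 6.19% lower). The median change, t12/T43 minus Ttf/T43H, was -0.14 over the members and 0.05 over all genes. With 3 arrays each, the intervals remain wide, so a miss does not show that the carriers were alike.

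The testis comparisons asked the same of the carriers at 15 days, when the first wave of spermatocytes is in meiosis. In t12/T43 testes 1 member rose and 19 fell, of 72, against C57BL/6J testes, where 21.8% of all genes were called, 10.5% higher and 11.3% lower. In Ttf/T43H testes 0 rose and 5 fell, where 8.56% of all genes were called, 3.86% higher and 4.7% lower. Changes were small, with medians of -0.16 over the members for t12/T43 and -0.07 for Ttf/T43H, against 0.02 and 0.0035 over all genes. Every t12/T43 array lay below both C57BL/6J arrays for 55 members and above both for 4, where 26.6% and 30.3% of all genes did so (56.9% together). For Ttf/T43H testes these numbers were 29 and 7, with 21.6% and 22.7% of all genes (44.3% together).

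Mrps34 was at 8.99, 8.90 and 9.27 in t12/T43 testes and 9.14, 9.32 and 9.35 in Ttf/T43H testes, against 9.74 and 9.76 in C57BL/6J testes. The carriers do not overlap the controls. It fell by 0.70 ± 0.11 in t12/T43 (1.62-fold, adjusted p 0.00717 by limma, n = 3 and 2) and by 0.48 ± 0.11 in Ttf/T43H (adjusted p 0.0474).

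Mrpl18, a protein of the large subunit whose human form takes part in the import of 5S ribosomal RNA, was at 10.30, 10.23 and 10.43 in t12/T43 testes and 10.69, 10.59 and 10.57 in Ttf/T43H testes, against 10.98 and 10.78. It fell by 0.56 ± 0.08 in t12/T43. In Ttf/T43H its change was -0.26 ± 0.08 (adjusted p 0.109, limma). Mrpl28, the bL28 protein, was at 11.22, 11.20 and 11.23 in t12/T43 testes and 11.12, 11.24 and 11.23 in Ttf/T43H testes, against 11.51 and 11.53. It fell in both, by 0.30 ± 0.05 and 0.32 ± 0.05.

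Mrps34, Mrpl18 and Mrpl28 are the 3 members on proximal chromosome 17, so all 3 fell in t12/T43 testes and 2 of 3 in Ttf/T43H testes. Over all genes 21.8% and 8.56% were called, and the share among all genes of proximal 17 is not given here. Of these 3 members only Mrpl18, in t12/T43 testes, kept its call whichever array of the groups compared was left out. Of the 3 members on distal 17, Mrpl14, Mrps18a and Mrpl2, 0 were called in either carrier. Of the 3 on chromosome 16, Mrpl40 fell in t12/T43 testes (-0.23 ± 0.06), while Mrpl39 (-0.25 ± 0.09) and Mrps6 (0.13 ± 0.09) did not pass the test. On the other chromosomes, pseudogenes included, 1 member rose and 15 fell of 63 tested in t12/T43 testes, and 0 rose and 3 fell in Ttf/T43H testes.

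Mrpl55, a protein of the large subunit, was at 8.84, 8.79 and 8.76 in t12/T43 testes and 9.08, 9.12 and 8.98 in Ttf/T43H testes, against 9.41 and 9.28. It fell by 0.55 ± 0.06 in t12/T43 and by 0.29 ± 0.06 in Ttf/T43H, with no overlap between either carrier and the controls. Mrps23, a mitochondria-specific protein of the small subunit, was at 9.13, 9.22 and 9.28 in t12/T43 testes and 9.22, 9.24 and 9.39 in Ttf/T43H testes, against 9.58 and 9.62. It also fell in both, by 0.39 ± 0.07 and 0.32 ± 0.07.

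Mrpl24 and Mrpl38 fell in t12/T43 testes. The change of Mrpl24 was -0.48 ± 0.08 there and -0.11 ± 0.08 in Ttf/T43H testes (adjusted p 0.424, limma). Mrpl38 was at 8.60 to 8.73 in t12/T43 testes, below both C57BL/6J testes (-0.41 ± 0.07). Mrpl34 fell in Ttf/T43H testes (-0.26 ± 0.06). The 1 member that rose was Mrps35 in t12/T43 testes, at 9.75, 9.71 and 9.72, against 9.55 and 9.58 (0.16 ± 0.05). The other 11 that fell in t12/T43 testes were Mrps21, Mrpl53, Mrps28, Mrpl47, Mrpl22, Mrpl52, Mrpl57, Mrpl54, Mrpl27-ps, Mrps14 and Mrpl16, by changes of -0.38 to -0.20.

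**Figure D5:**
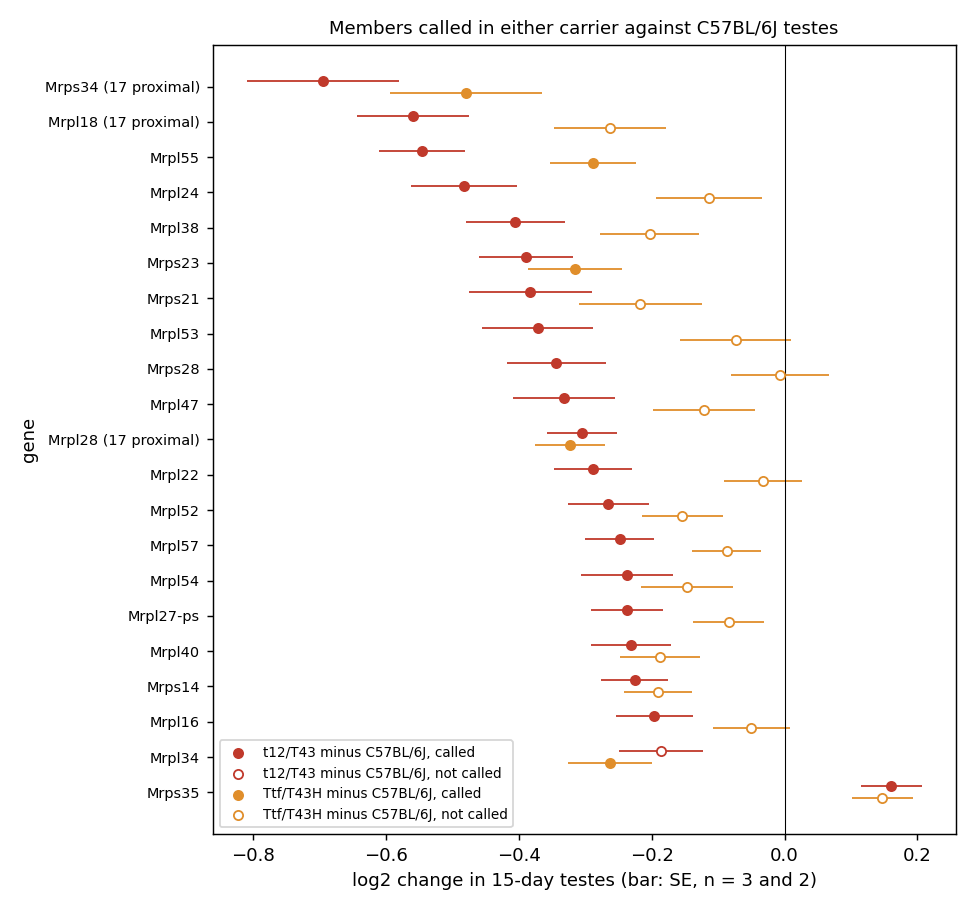
Log2 change in 15-day testes against C57BL/6J testes for the 21 members called in t12/T43 (red) or Ttf/T43H (orange), with the moderated SE as a bar and filled points for called changes. All but Mrps35 lie left of 0, with Mrps34 lowest at -0.70 in t12/T43 and -0.48 in Ttf/T43H.

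Since changes were small and the controls were 2 arrays, these calls depended on single arrays. For t12/T43, dropping the first C57BL/6J array left 3 calls, dropping the second left 6 and dropping t12/T43 replicate 2 left 10. Mrpl18 and Mrpl55 were called in each of these 5 refits, and the other 18 were not. For Ttf/T43H the count lay between 0 and 3 with any 1 array of the groups compared left out, so that each of the 5 lost its call at least once. Of the tested pachytene markers 3 of 6 fell in t12/T43 testes and 1 of 6 in Ttf/T43H testes, and the list averaged 8.64 to 9.13 in t12/T43, 9.45 to 9.93 in Ttf/T43H and 10.0 to 10.2 in C57BL/6J testes. In t12/T43 testes 2 of 5 Sertoli and 2 of 5 spermatogonial markers rose, and 1 each of 4 Leydig, 4 peritubular and 4 macrophage markers fell. In Ttf/T43H testes 1 of 4 Leydig and 1 of 4 macrophage markers fell. The part of cell makeup in the members' changes was not tested.

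Between the carriers, t12/T43 testes had 5 members lower and 0 higher than Ttf/T43H testes, with a background of 4.99% (1.07% higher, 3.92% lower). They were Mrpl24 (-0.37 ± 0.07), Mrps28 (-0.34 ± 0.07), Mrpl12 (-0.27 ± 0.05), Mrpl22 (-0.26 ± 0.05) and Mrpl58 (-0.21 ± 0.05). Mrpl24, the uL24 protein, was at 11.77, 11.79 and 11.60 in t12/T43 testes, against 12.16, 12.13 and 11.98 in Ttf/T43H testes. Every t12/T43 array lay below every Ttf/T43H array for 26 members and above for 0, where 16.1% and 14.8% of all genes did so (30.9% together). The count was 0 without any one of Ttf/T43H replicates 1 and 2 or t12/T43 replicates 2 and 3, and 1 without t12/T43 replicate 1. An interaction term compared the t12/T43 minus Ttf/T43H difference of sorted cells with that of testes. It called 0 members (limma, background 0.734%, 0.0659% higher and 0.668% lower). An unadjusted p under 0.05 was found for 2 members, against 812 of all 10623 genes tested.

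Sorted cells and testes of the same carrier differ in age, sorting and RNA kit as well as in cell makeup, and these cannot be told apart. In sorted t12/T43 cells 20 members were higher and 22 lower than in t12/T43 testes, with a background of 73.3% (41.6% higher, 31.7% lower). In sorted Ttf/T43H cells 17 were higher and 20 lower than in Ttf/T43H testes, with a background of 71.1% (40.1% higher, 31% lower). The 2 lists shared 17 higher members, 85% of the t12/T43 list and 100% of the Ttf/T43H list. They shared 17 lower members, 77.3% and 85% of the lists. The overlap over all genes called is not given here. With 73.3% and 71.1% of all genes called, this sharing is not read as a trait of the members.

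Mrpl54, a mitochondria-specific protein of the large subunit, was at 6.38, 4.09 and 6.38 in sorted t12/T43 cells, against 10.26, 10.26 and 10.20 in t12/T43 testes. It was at 6.52, 6.32 and 6.35 in sorted Ttf/T43H cells, against 10.38, 10.38 and 10.23 in Ttf/T43H testes. The levels were 24.68-fold and 15.28-fold lower in sorted cells (-4.63 ± 0.43 and -3.93 ± 0.43). Replicate 2 of sorted t12/T43 cells, at 4.09, lies close to the floor of 4, and without it the t12/T43 change was -3.86 ± 0.12, 14.54-fold lower. The C57BL/10J sorted cells, at 5.87 to 6.78, lay near the carriers.

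Mrpl57, another mitochondria-specific protein of the large subunit, showed the opposite. It was at 8.05, 7.96 and 8.24 in sorted t12/T43 cells, against 5.45, 5.41 and 5.47 in t12/T43 testes (2.64 ± 0.11), and at 8.09, 8.11 and 8.11 in sorted Ttf/T43H cells, against 5.60, 5.64 and 5.57 in Ttf/T43H testes (2.50 ± 0.11). Mrpl3 was at 13.08, 12.35 and 13.41 in sorted t12/T43 cells, against 10.80, 10.83 and 10.88 in t12/T43 testes (2.11 ± 0.26). In Ttf/T43H its difference was 1.72 ± 0.26.

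Other members higher in sorted cells of both carriers included Mrpl38 (1.84 ± 0.31 in t12/T43 and 1.96 ± 0.31 in Ttf/T43H), Mrpl9 (1.70 ± 0.20 and 1.29 ± 0.20), Mrpl35 (1.40 ± 0.11 and 1.46 ± 0.11) and Mrpl39 (1.68 ± 0.21 and 1.02 ± 0.21). Without replicate 2 of sorted t12/T43 cells the change of Mrpl38 in t12/T43 was 2.36 ± 0.16, and without replicates 2 and 3 it was 2.46 ± 0.19, with 1 sorted t12/T43 array left. Members lower in both included Mrps16, the bS16 protein (-2.58 ± 0.49 and -1.63 ± 0.49), Mrpl34 (-2.49 ± 0.22 and -2.26 ± 0.22), Mrps11 (-2.19 ± 0.34 and -1.73 ± 0.34), Mrps34 (-1.86 ± 0.30 and -1.96 ± 0.30) and Mrpl49 (-1.71 ± 0.26 and -1.64 ± 0.26). Without replicate 2 of sorted Ttf/T43H cells the Ttf/T43H change of Mrps16 was -2.29 ± 0.37. The balance of higher and lower members depended on scaling, at 38 higher and 9 lower for t12/T43 and 30 and 11 for Ttf/T43H with arrays centred on their medians, and 19 and 33, and 19 and 31, after quantile normalization. Centring moved the median of all genes to 0.95 for t12/T43 and 0.72 for Ttf/T43H. Gapdh 3′ minus 5′ signals, 3.26 to 3.98 in sorted carriers, were -0.07 to 0.14 in carrier testes, and in both carriers 8 of 8 spermatid markers were higher, and 5 of 5 Sertoli, 4 of 4 peritubular and endothelial and 4 of 4 macrophage and blood markers lower, in sorted cells than in testes. The part of RNA quality and of these cells in the differences was not tested.

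Other genes of mitochondrial translation were taken as lists. Of genes for mitochondrial ribosomal proteins under other symbols, Gadd45gip1, a large-subunit protein also known as CRIF1, was below the floor of 4 on all 10 sorted arrays, at 2.62 to 3.62, and at 7.84 to 8.42 in testes. With sorted values set at the floor, it was at least 14.51-fold lower in sorted cells than in testes of t12/T43, and at least 16.12-fold in Ttf/T43H. In testes it fell by 0.54 ± 0.05 in t12/T43 and by 0.38 ± 0.05 in Ttf/T43H against C57BL/6J. It was 1 of 3 such genes tested in the testes, and the other 2 did not pass the test there.

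Against C57BL/10J pre-mid cells, 9.07% of all genes were called in sorted t12/T43 cells and 2.06% in sorted Ttf/T43H cells. Among 21 tested genes for assembly factors and ribosomal RNA enzymes, Nsun4, a methyltransferase of the small-subunit RNA, was the 1 gene called there. It fell by 2.01 ± 0.24 in t12/T43 (adjusted p 0.00193) and by 1.95 ± 0.24 in Ttf/T43H (adjusted p 0.00967, limma, n = 3 and 2 in each). Its values were 8.47, 8.46 and 9.01 in t12/T43 cells and 8.59, 8.84 and 8.68 in Ttf/T43H cells, against 10.73 and 10.58 in C57BL/10J pre-mid cells, and all 6 carrier values lay below both controls. In mid-late cells it fell by 3.26 ± 0.26, and 3 genes of its list rose and 4 fell, where 56.5% of all genes were called.

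Of 10 translation factor genes, 2 rose and 3 fell in mid-late cells, where 56.5% of all genes were called. Mtif3, mitochondrial initiation factor 3, was at 10.74 and 10.89 in mid-late cells, against 5.19 and 5.05 in pre-mid C57BL/10J cells, and rose by 5.69 ± 0.28 (51.73-fold). Guf1, a factor that acts on elongating ribosomes, fell by 4.17 ± 0.25. Of 18 mitochondrial transfer RNA synthetase and amidotransferase genes, 3 rose and 3 fell in mid-late cells against the same background, with Aars2 at 3.54 ± 0.23 and Gatc at 2.42 ± 0.20. In testes, Mtif2, mitochondrial initiation factor 2, fell by 0.68 ± 0.05 in t12/T43 and by 0.69 ± 0.05 in Ttf/T43H, and the small-subunit assembly factor Mettl17 fell by 0.57 ± 0.06 and 0.45 ± 0.06.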

How the data were processed

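RNA of 18 samples was hybridised to Affymetrix mouse arrays with a custom chip definition of 1 probe set per gene. The authors deposited log2 expression values, made with GCRMA per the submitters' processing notes, while the sources used here give neither its version nor which arrays were normalized together. In all there were 16539 probe sets, 15780 with 1 gene symbol in the platform annotation. Samples were grouped by their labels. From these values limma 3.58.1 (R 4.3.3) fitted 1 mean per group with moderated errors, separately for the 10 sorted arrays (9666 genes), the 8 testis arrays (9134 genes) and, for sorted cells against testes and the interaction, all 18 (10623 genes). Genes entered a fit if 2 or more of its arrays reached log2 4. Tests were two-sided, p-values were Benjamini-Hochberg adjusted over all genes tested, and a gene was called at an adjusted p under 0.05. Precision is limited by the number of arrays.

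The members and gene lists were chosen with earlier results of these data known. Members named are those on chromosomes 16 and 17, the Mrps18 family, the pseudogenes, up to 6 called members with the largest change each way whose group ranges do not overlap, and those with the highest or lowest mean, and others are named to account for every called member. Marker lists covered Leydig, Sertoli, macrophage and blood, pachytene, peritubular and endothelial, spermatid and spermatogonial genes. Alternatives were no filter and a filter at log2 6, quantile normalization, centring, limma's trend and robust options, a replicate block and left-out arrays. Deviations of same-numbered sorted and testis samples correlated over genes at 0.134, 0.101 and 0.22 in t12/T43, and at 0.005, -0.056 and -0.269 in Ttf/T43H. With the number as a block 41 members were called in t12/T43, against 42 without. The correlations within testes and within sorted cells are given below. Promoter sequences came from RefSeq (GRCm38.p6).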

Additional observations from a re-analysis of the deposited data

Results flagged for a closer look

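For 10 members every carrier array lay on one side of the controls in sorted cells and on the opposite side in testes, while none of these changes was called and the difference between sorted cells and testes was not tested. They are 5 of 72 members tested in both fits in each carrier (6.94%), where 6.51% of all genes tested in both did so in Ttf/T43H and 6.6% in t12/T43. For each member the value given here is the change in sorted cells minus that in testes, on the log2 scale. In Ttf/T43H this was -0.316 for Mrpl12, 0.5118 for Mrpl54, 0.1159 for Mrpl57, 1.0081 for Mrpl13 and -0.6895 for Mrpl3. In t12/T43 it was 0.0896 for Mrpl17, 0.2356 for Mrpl35, 0.4173 for Mrpl51, 0.3813 for Mrps9 and 1.216 for Mrpl36. The widest, for Mrpl36, joined a change of 0.96 ± 0.36 in sorted cells (adjusted p 0.149, limma) with one of -0.26 ± 0.09 in testes (adjusted p 0.0831).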

How the results depend on the processing

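Of the counts of called members under the alternatives, 108 stayed within 1.5 times of the value reported, 25 were lower and 7 higher. The 108 include comparisons with 0 called in which the count was 0 again. For sorted t12/T43 against C57BL/10J cells (1 called) the count was 0 with no filter, with arrays centred on their median and with the replicate block, 3 after quantile normalization, 3 without Ttf/T43H replicate 2 and t12/T43 replicate 3, and 3 with arrays centred on the median of values of at least log2 4, a setting chosen after seeing the data. With 1 array left out it ranged from 0 to 4. For mid-late against pre-mid C57BL/10J cells (28 called) leaving out 1 array gave 17 to 19. For Ttf/T43H against C57BL/6J testes (5 called) centring on the median gave 2, the replicate block 11, and leaving out 1 array 0 to 3. For t12/T43 against C57BL/6J testes (20 called) leaving out 1 array gave 3 to 16. For t12/T43 against Ttf/T43H testes (5 called) no filter gave 0, quantile normalization 3, trend and robust options 8, the replicate block 12, and leaving out 1 array 0 to 7. In these 3 testis comparisons and in the sorted ones the labels link samples only by a number. Deviations of same-numbered testes correlated at 0.492, 0.045 and 0.677 for t12/T43 and Ttf/T43H. They correlated at 0.383 and 0.168 for Ttf/T43H and C57BL/6J, and at 0.256 and -0.074 for t12/T43 and C57BL/6J. In the sorted comparisons the range was -0.347 to 0.25. Whether same-numbered samples shared a batch was not tested. Between sorted cells and testes leaving out 1 array gave 37 to 46 for t12/T43 and 34 to 42 for Ttf/T43H. Without t12/T43 replicates 2 and 3, also chosen after seeing the data, which leaves 1 sorted t12/T43 array assumed to vary like the other groups, the counts were 1 against C57BL/10J and 38 against testes.

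Of the single members' changes, 1844 kept their side of the threshold, 115 lost and 26 gained a call, and 4 reversed with a call before or after. Changes called neither before nor after count with the 1844 even where their direction turned. That of Mrpl28 between sorted Ttf/T43H cells and testes, for example, was -0.3101 after quantile normalization. The sorted minus testis change of Mrps6 was -0.0403 in t12/T43 and -0.0731 in Ttf/T43H after quantile normalization, and that of Mrpl28 in Ttf/T43H was -0.5857 without Ttf/T43H replicate 2, with or without t12/T43 replicate 3, and ranged from -0.5857 to 0.5823 with 1 array left out (0.1098 with all). The causes were not tested. Groups of 2 or 3 arrays limit all comparisons, and values near log2 4 lie close to background.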

Other observations

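In the cytosolic list Rps6, a protein of the small subunit chosen here after its values were seen, was lower in testes of both carriers than in C57BL/6J testes, by -3.14 ± 0.08 in t12/T43 (8.82-fold) and -3.26 ± 0.08 in Ttf/T43H (9.566-fold), on the log2 scale with SE. Of 19 genes of the list tested, 1 rose and 4 fell in t12/T43 testes, and 1 rose and 3 fell in Ttf/T43H testes, where 21.8% and 8.56% of all genes were called. Without Rps19bp1 and Rpl7l1, which encode other proteins, these counts stood, of 17 tested. Both comparisons share the same 2 controls, of another strain than the carriers' background. In sorted t12/T43 cells the change of Rps6 against C57BL/10J was 1.80 ± 0.58 (adjusted p 0.0958, limma).

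Of 11 genes for the expression of mitochondrial DNA, 2 rose and 5 fell in mid-late C57BL/10J cells, where 56.5% of all genes were called. Mterf1a, a factor that ends mitochondrial transcription, rose by 3.85 ± 0.29 and Mterf2 by 2.99 ± 0.20. Against testes, Mterf2 was lower in sorted cells of both carriers (-2.35 ± 0.12 in each), and Mterf1a was lower by -2.07 ± 0.17 in t12/T43 and -2.46 ± 0.17 in Ttf/T43H. Dhx30, a helicase of mitochondrial ribosome assembly, was higher in sorted cells, by 2.13 ± 0.11 and 1.89 ± 0.11.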
